A study of Citrullus lanatus with 4 samples.

Results

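The genes described here had more transcript in open flowers of the male sterile watermelon line DAH3615-MS than in those of its male fertile near-isogenic counterpart DAH3615, while the floral buds of the 2 lines gave similar values. RNA-seq was performed on 4 libraries, 1 for each of 4 conditions: flowers of DAH3615-MS (MS flowers), flowers of DAH3615 (MF flowers), floral buds of DAH3615-MS (MS buds) and floral buds of DAH3615 (MF buds). The plants came from 1 population that segregates for sterility, made by backcrossing, and grew in a greenhouse. The sterile plants carried the recessive nuclear sterility allele in both copies (msms), inherited from the Chinese male sterile line ms-1, and the fertile plants carried 1 copy of it (Msms). Flowers were collected on the day of opening and buds on the day before, from other nodes of the stem, and the MS buds were shorter than the MF buds. The sources used here do not say how many plants went into a library, and no condition had a second library.

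The genes were chosen by their values in all 4 libraries. Counts per gene were divided by the column sum and expressed as counts per 1000000 (CPM), and ratios were taken on CPM + 1. A gene was included with at least 10 CPM in MS flowers, a ratio of MS flowers to MF flowers of at least 2 and a ratio of MS buds to MF buds between 0.67 and 1.5. This gave 103 of the 23440 genes of the count table, or 103 of the 10814 genes with at least 10 CPM in MS flowers. All 103 are described below. Because these values selected the genes, the line ratios are given as a description without a test. With 1 library per condition, no ratio in either direction has a replicate check.

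In genic male sterility a defect in a nuclear gene stops the formation of functional stamens or pollen, while sepals, petals and other floral tissues can still form. Between the bud on the eve of opening and the open flower, petals expand and anthers of a fertile flower release their pollen. A whole flower is a mixture of tissues, so a flower with few or no pollen grains gives a different mixture of RNA from a fertile one. In such bulk samples, fewer cells of one type and less RNA per cell cannot be told apart.

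The 4 libraries held 5239032 counts in MS flowers, 6315796 in MF flowers, 5778852 in MS buds and 5631190 in MF buds. At these depths 10 CPM corresponded to 52.4 counts in MS flowers and to 63.2 counts in MF flowers. Summed markers of pollen were lower in the sterile line. The summed level of 6 genes whose descriptions name pollen was 6.68 CPM in MS flowers, 529 CPM in MF flowers, 27.3 CPM in MS buds and 569 CPM in MF buds. Of this sum Cla002347 alone gave 1.15 CPM in MS flowers and 494 CPM in MF flowers. Not every marker went this way, as Cla002155 had 2.29 CPM in MS flowers, 1.58 in MF flowers, 7.79 in MS buds and 3.197 in MF buds, and Cla003156 was close in flowers, with 1.53 CPM in MS flowers and 1.58 in MF flowers. The 4 genes of the study's qRT-PCR set that could be matched to 1 gene ID, which the study chose on these samples, summed to 3.24 CPM in MS flowers, 1287 CPM in MF flowers, 4.67 CPM in MS buds and 1035 CPM in MF buds. Of this second sum Cla001608, a LIM domain protein, alone gave 936 CPM in MF flowers. The set also held Cla000553, elongation factor 1-alpha, which the study describes as a housekeeping gene. Both sets came only from the first 1999 gene rows of the study's annotation, so further genes of either kind may be missing. Over both sets, 3 of the 10 markers were at 0 counts in MS flowers and 1 in MF flowers. Among those at 0 in MS flowers, Cla002397 and Cla002114 were hardly read in MF flowers either, with 0 and 3 counts. The 421 genes with at least 10 CPM in MF flowers that were at least 10-fold lower in MS flowers took 0.0695% of all counts in MS flowers, 8.48% in MF flowers, 0.125% in MS buds and 6.62% in MF buds. These 421 genes were chosen by their flower values, so the gap between the flower shares is set by the choice. None of the 6 genes named for pollen reached 10 CPM in MS flowers.

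Counts that one library spends on such genes are missing from the CPM of all others. The median ratio of MS flowers to MF flowers over the 10814 genes was 1.14, and the median ratio of MS buds to MF buds was 1.13. Scaling by the trimmed mean of M values (TMM), which sets most genes level between libraries, multiplied every flower ratio of CPM by 0.903 and every bud ratio by 0.914. Under TMM 45 genes met the same rule, and 43 of the 103 genes were among them. Median-of-ratios size factors gave 47 genes and kept the same number of the original ones, 43. Both scalings together kept these 43. The part of pollen transcripts in the ratios of single genes was not tested.

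A flower ratio of at least 2 was found for 206 of the 10814 genes, or 1.9%. Of these, 103 had a bud ratio inside the window, 88 had a bud ratio above 1.5 and 15 a bud ratio under 0.67. A bud ratio inside the window was found for 81.1% of the 10814 genes. The same rule turned round, with at least 10 CPM in MF flowers and a ratio of at most 0.5, gave 114 genes, and 146 under TMM. Among the 103 genes the flower ratio had a median of 2.16 and a highest value of 4.34, and 89 genes lay under 2.5. The bud ratio had a median of 1.19, above 1 in 84 of the 103 genes, against 68.7% of the 10814 genes.

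**Figure D1:**
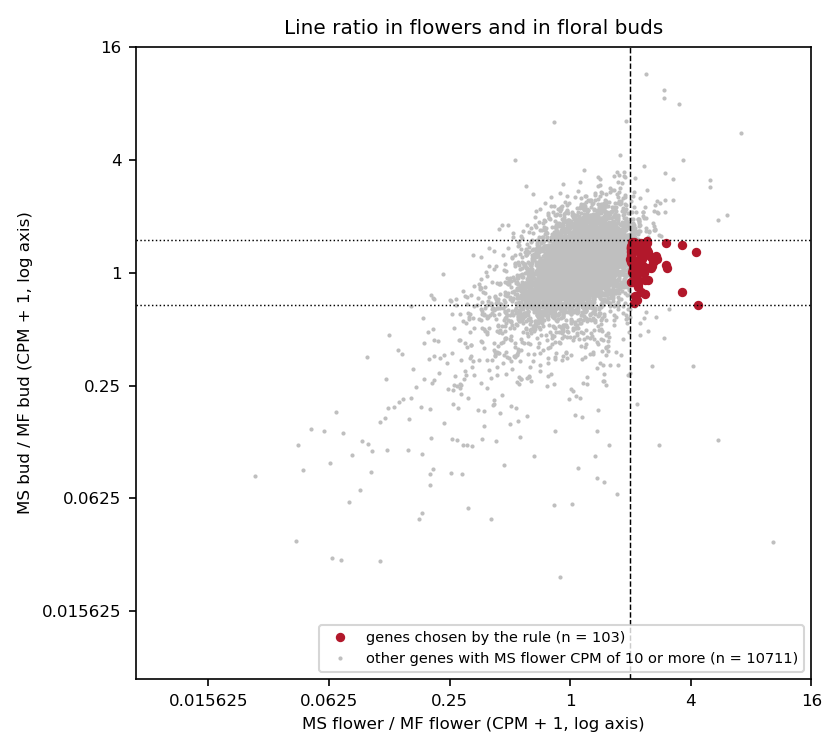
Ratio of MS to MF libraries in flowers (horizontal) and in floral buds (vertical) on CPM + 1, both axes logarithmic, for the 10814 genes with at least 10 CPM in MS flowers. Red points are the 103 genes described here, which lie right of the dashed line at 2 and between the dotted lines at 0.67 and 1.5, mostly close to the dashed line.

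Counting error alone was estimated with exact conditional binomial intervals (95%) of the CPM ratio of 2 libraries, computed without a pseudocount. Reads carried no molecular identifiers, so the intervals do not cover amplification or the variation between plants. The interval of the flower ratio lay above 1 in all 103 genes, above 1.5 in 95 and above 2 in 12, so that in 91 genes it reached the limit of 2 or less. The rule admits only flower ratios of at least 2, so intervals above 1 are largely set by the choice and are no separate support. The interval of the bud ratio lay wholly inside the window in 13 genes and crossed an edge of it in 90, so at this depth most of the genes cannot be placed firmly inside or outside the window. It held 1 in 77 genes, lay above 1 in 23 and below 1 in 3. The intervals of the flower and bud ratios did not overlap in 46 genes, of which 20 also met the rule under both scalings. The rule already puts the flower ratio above the bud ratio in all 103 genes, so this separation too is partly set by the choice. The share of such genes outside the 103 is not given here, and nothing is read from these counts.

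A higher level in sterile flowers with level buds can come about in several ways, and the libraries of each line were therefore compared between organs. The rule forces the flower-to-bud ratio of DAH3615-MS to be at least 1.33 times that of DAH3615, so that difference is not a result. It leaves free whether a gene was higher or lower in flowers than in buds, but it favours some combinations of the 2 lines over others. Over the 103 genes the median ratio of MS flowers to MS buds was 2.01 and the median ratio of MF flowers to MF buds 1.09, against 1.05 and 1.02 over the 10814 genes. MS flowers were at least 2-fold above MS buds in 52 of the 103 genes, or 50.5%, against 14.6% of the 10814 genes, and at most 0.5 times MS buds in 2 genes, against 10.4%. MF flowers were at least 2-fold above MF buds in 21 genes, or 20.4%, against 12.4%, and at most 0.5 times MF buds in 8 genes, or 7.77%, against 7.57%. As MS flowers enter the rule, a higher share of genes above MS buds is partly set by the choice. The sterile flower library was the highest of the 4 in 95 of the 103 genes, and it was at least 2-fold above both bud libraries in 50. The rule already puts MS flowers at least 2-fold above MF flowers, so these counts too are partly set by the choice. Their shares over the 10814 genes are not given here, and nothing is read from them.

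**Figure D2:**
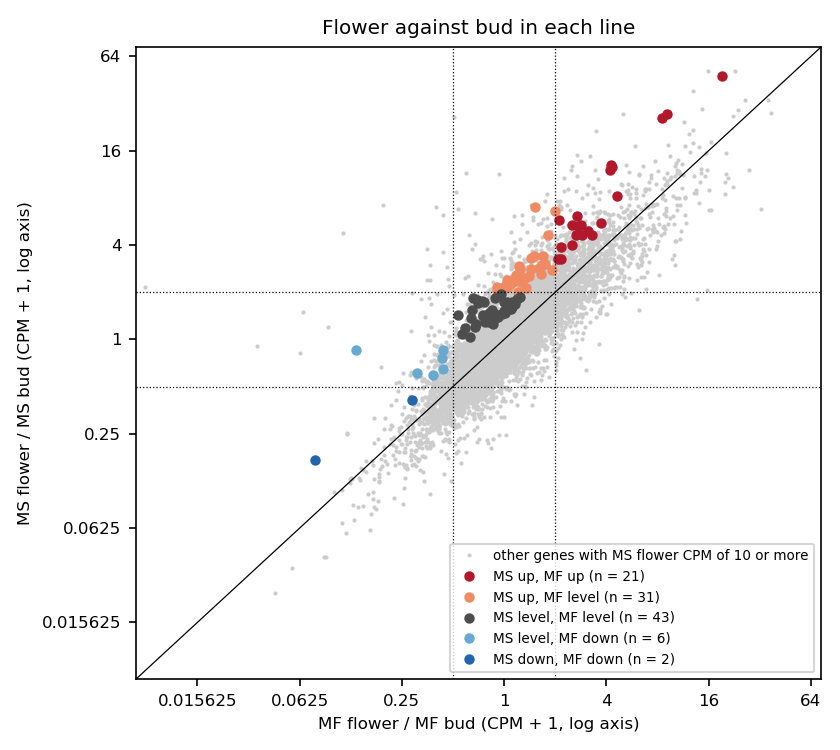
Ratio of flowers to buds in DAH3615-MS (vertical) and in DAH3615 (horizontal) on CPM + 1, both axes logarithmic. Coloured points are the 103 genes by class (up, at least 2; down, at most 0.5; level, between), grey points are the other genes with at least 10 CPM in MS flowers, and the diagonal marks equal ratios. The classes hold 21, 31, 43, 6 and 2 genes in the order of the legend, all above the diagonal.

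In 21 genes both lines had at least 2-fold more transcript in flowers than in buds, and DAH3615-MS had the larger difference. The median ratio of flowers to buds was 5.40 in DAH3615-MS and 2.87 in DAH3615. Such genes were 20.4% of the 103 and 9.80% of the 10814, and 8 of the 21 met the rule under TMM. Cla019485, on chromosome 3 from 5778780 to 5781333, had 16582 counts in MS flowers, 9563 in MF flowers, 663 in MS buds and 937 in MF buds. In flowers it had more counts than any other of the 103 genes, and it took 39.6% of the counts of the 103 genes in MS flowers and 41.1% in MF flowers. In CPM it had 3165 in MS flowers, 1514 in MF flowers, 115 in MS buds and 166 in MF buds, so that the 2 flower libraries stood far above both buds. Its flower ratio was 2.09 (interval 2.04 to 2.14), its bud ratio 0.691 (0.623 to 0.762), and under TMM its flower ratio was 1.89, below the limit of the rule. Without this gene, left out after its values were seen, the other 102 summed to 4829 CPM in MS flowers, 2167 in MF flowers, 2569 in MS buds and 2086 in MF buds. The rule itself sets MS flowers above MF flowers and keeps the buds near each other. Single genes among the 103 varied more than the sums, with MF flowers at 0.0770 to 19.1 times MF buds.

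Cla015165, on chromosome 9 from 3809851 to 3811275, had 289 counts in MS flowers, 157 in MF flowers, 1 in MS buds and 2 in MF buds. Nearly all of its reads thus came from the open flowers of both lines, and its bud ratio rests on 3 reads (interval 0.00826 to 9.36). Cla016098, on chromosome 9 from 14488710 to 14492600, had 247 counts in MS flowers, 134 in MF flowers, 5 in MS buds and 9 in MF buds, the same pattern with few bud counts. For both genes the flower ratio was 2.17, and under TMM it was 1.97 and 1.96, just below 2. Cla005087, with 53 counts in MS flowers, 23 in MF flowers, 2 in MS buds and 0 in MF buds, had no reads at all in the fertile bud, so that both of its bud values lay under the floor of 3 counts.

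Cla014233, on chromosome 1 from 29297393 to 29300177, had 163 counts in MS flowers, 60 in MF flowers, 9 in MS buds and 8 in MF buds. Its flower ratio was 3.06 (interval 2.42 to 4.48) and 2.78 under TMM. Cla017000, on chromosome 10 from 21171871 to 21176346, had 514 counts in MS flowers, 201 in MF flowers, 93 in MS buds and 82 in MF buds. With a flower ratio of 3.02 (2.61 to 3.65) and a bud ratio of 1.10 (0.812 to 1.51), it was the gene with the most counts among the 7 genes with a flower ratio of at least 3. Cla006745, on chromosome 2 from 8454940 to 8457206, had 216 counts in MS flowers, 106 in MF flowers, 13 in MS buds and 18 in MF buds, a flower-to-bud ratio of 13.0 in DAH3615-MS and 4.24 in DAH3615. Cla006944 on chromosome 6, with 128 counts in MS flowers, 53 in MF flowers, 18 in MS buds and 14 in MF buds, and Cla017592 on chromosome 10, with 1067, 573, 249 and 188 counts in the same order, also kept a flower ratio above 2 under TMM, at 2.47 and 2.02.

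In 31 genes only the sterile line had at least 2-fold more transcript in flowers than in buds. Their median ratio of flowers to buds was 2.56 in DAH3615-MS and 1.27 in DAH3615. They made up 30.1% of the 103 genes and 4.63% of the 10814. The gap between the lines that the rule forces favours this class, so the larger share is not a result. Of the 31 genes, 18 met the rule under TMM. Cla017484, on chromosome 10 from 23077180 to 23093494, had 95 counts in MS flowers, 22 in MF flowers, 11 in MS buds and 7 in MF buds. Its flower ratio of 4.27 (interval 3.25 to 8.70) was the second highest of all, and MF flowers were themselves 2.00 times MF buds, at the edge of the class. Cla011528, on chromosome 1 from 3427658 to 3429124, had 101 counts in MS flowers, 29 in MF flowers, 11 in MS buds and 15 in MF buds. MS flowers thus stood 6.98 times above MS buds, while MF flowers were 1.53 times MF buds (0.894 to 3.46), a difference within counting error. Cla016022, on chromosome 2 from 6374623 to 6374912, had 253 counts in MS flowers, 80 in MF flowers, 56 in MS buds and 37 in MF buds, with a flower ratio of 3.61 (2.95 to 4.97). Cla005103 on chromosome 3 had 122 counts in MS flowers, 51 in MF flowers, 58 in MS buds and 45 in MF buds, so that the sterile flower alone stood apart from 3 similar libraries.

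The genes of this class with the most counts lay closer to the limit. Cla003741, on chromosome 2 from 13705396 to 13705644, had 2446 counts in MS flowers, 1444 in MF flowers, 1051 in MS buds and 911 in MF buds. Its flower ratio was 2.04 (interval 1.91 to 2.18), and 1.84 under TMM. Cla020385 on chromosome 5, with 1013 counts in MS flowers, 584 in MF flowers, 389 in MS buds and 322 in MF buds, had a flower ratio of 2.08 (1.89 to 2.32), and 1.88 under TMM. For both, the interval by column sums already held 2, so that counting error alone leaves the side of the limit unsettled.

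In 43 genes neither line reached a 2-fold difference between organs. The median ratio of flowers to buds was 1.48 in DAH3615-MS and 0.855 in DAH3615, and the median bud ratio was 1.30. MS flowers were above MS buds in all 43 genes, MF flowers were below MF buds in 32, and MS buds were above MF buds in 37. The gap between the lines that the rule forces favours the counts of flowers against buds. Their shares over the 10814 genes are not given here, and nothing is read from these counts. MS buds were above MF buds in 68.7% of the 10814 genes. The 43 genes made up 41.7% of the 103 genes against 70.6% of the 10814, and 16 of the 43 met the rule under TMM. Cla004709, on chromosome 9 from 32359994 to 32360899, had 123 counts in MS flowers, 45 in MF flowers, 71 in MS buds and 46 in MF buds, a flower ratio of 3.01 (interval 2.32 to 4.75) and a bud ratio of 1.45 (1.02 to 2.23). Cla019089, on chromosome 6 from 24980818 to 24994288, had 1172 counts in MS flowers, 630 in MF flowers, 747 in MS buds and 562 in MF buds. MF flowers and MF buds were level at 99.8 CPM each, while MS buds had 129 CPM and MS flowers 224 CPM. The bud ratio of Cla019089 was 1.29 (1.16 to 1.45), with its interval above 1. Cla022130 on chromosome 8, with 2251 counts in MS flowers, 1277 in MF flowers, 1982 in MS buds and 1332 in MF buds, and Cla012428 on chromosome 8, with 1394, 817, 817 and 589 counts in the same order, were higher in the sterile line in buds too, with bud ratios of 1.45 and 1.35 whose intervals lay above 1.

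In 6 genes the fertile line had at most 0.5 times as much transcript in flowers as in buds, while the sterile line stayed within 2-fold. They made up 5.83% of the 103 genes and 1.76% of the 10814, and the rule favours this class too. The highest flower ratio of all 103 genes belonged to this class. Cla018086, on chromosome 4 from 18453246 to 18455861, had 86 counts in MS flowers, 19 in MF flowers, 111 in MS buds and 163 in MF buds. In DAH3615-MS the flower had 0.862 times the CPM + 1 of the bud (interval of the CPM ratio 0.637 to 1.14), and in DAH3615 0.134 times (0.0610 to 0.168). Its flower ratio was 4.34 (3.29 to 9.50), and 3.997 under TMM. Its bud ratio of 0.675 was the lowest of the 103 genes, just above the limit of 0.67, and under TMM it left the window. Cla010570 on chromosome 6 had 646 counts in MS flowers, 374 in MF flowers, 1098 in MS buds and 771 in MF buds, Cla017089 on chromosome 10 had 227, 129, 416 and 387 counts in the same order, and Cla023346 on chromosome 11 had 123, 66, 231 and 164. In all 6 genes of the class both lines had fewer counts in flowers than in buds. Of the 6 genes, 1 met the rule under TMM, Cla005819, with 62 counts in MS flowers, 28 in MF flowers, 91 in MS buds and 65 in MF buds.

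In 2 genes, 1.94% of the 103 against 5.70% of the 10814, both lines had at most 0.5 times as much transcript in flowers as in buds. Cla021146, on chromosome 5 from 765193 to 766104, had 58 counts in MS flowers, 30 in MF flowers, 407 in MS buds and 415 in MF buds. Nearly all of its reads came from the buds, and the flowers had 11.1 CPM in DAH3615-MS and 4.75 CPM in DAH3615. Cla017858 on chromosome 10 had 138 counts in MS flowers, 77 in MF flowers, 381 in MS buds and 253 in MF buds. Neither met the rule under TMM.

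**Figure D3:**
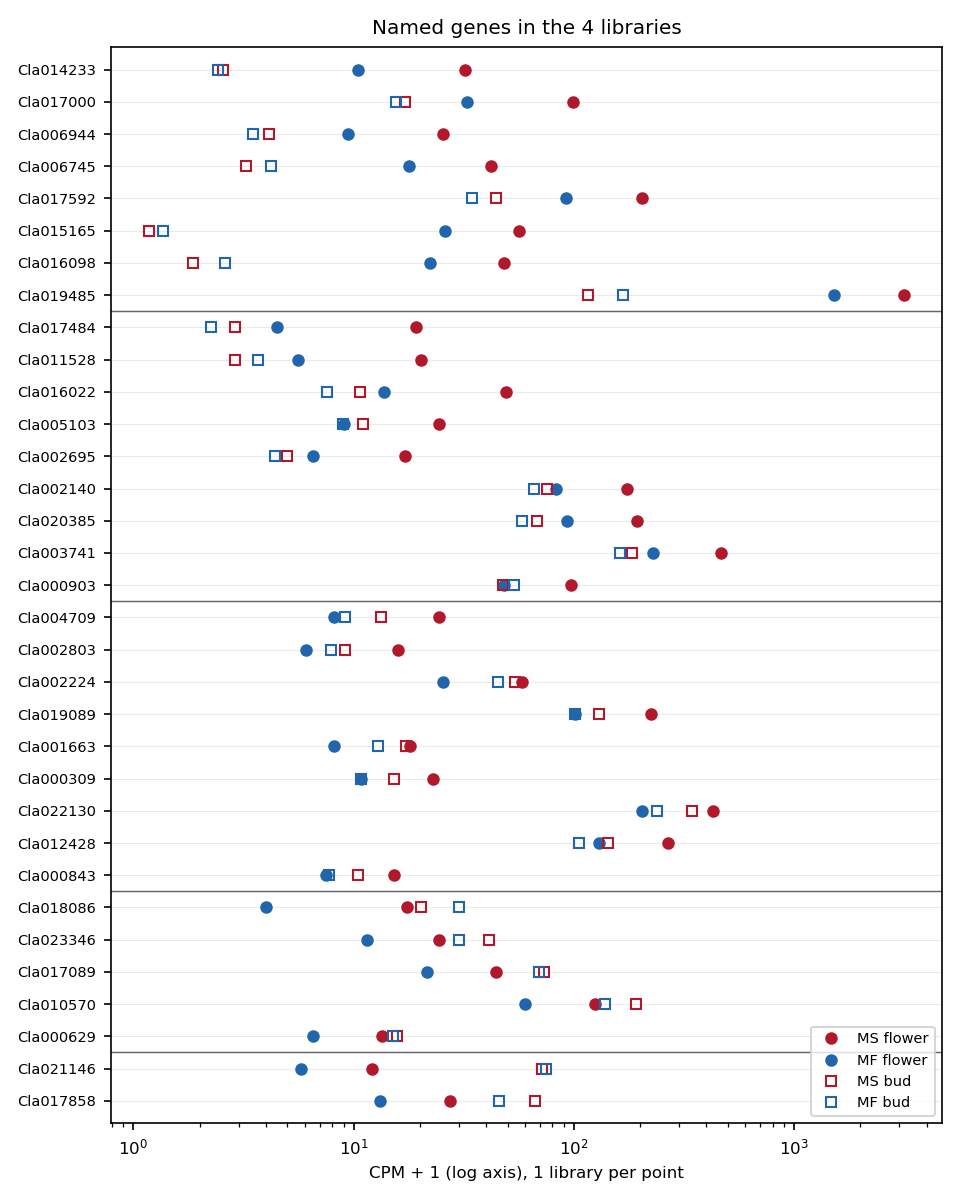
CPM + 1 of 33 named genes in the 4 libraries on a logarithmic axis, 1 point per library, in the order of the classes (from top to bottom: up in both lines, up in MS only, level in both, down in MF only, down in both), with lines between classes. Filled red circles (MS flowers) lie right of filled blue circles (MF flowers) in every row, as the rule requires, while the open squares of the buds lie left of, between or right of them.

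The descriptions used here covered 1000 of the 10814 genes, of which 927 had an entry other than unknown protein, and these included 9 of the 103. The 9 described genes were of different kinds. Those with the most counts were Cla002140, a PHD finger protein, and Cla000903, a homolog of the nucleotide excision repair protein MMS19. PHD fingers are small zinc-binding folds that in many chromatin proteins read marks on histone tails. Cla002140, on chromosome 3 from 11698751 to 11711246, had 906 counts in MS flowers, 519 in MF flowers, 429 in MS buds and 367 in MF buds. Its flower ratio was 2.09 (interval 1.89 to 2.35), and its bud ratio of 1.14 (0.989 to 1.31) held 1. MMS19 is known in yeast and animals as part of the machinery that places iron-sulfur clusters into enzymes of DNA metabolism. Cla000903, on chromosome 0 (sequence not assigned to a chromosome) from 21084817 to 21093569, had 506 counts in MS flowers, 299 in MF flowers, 271 in MS buds and 295 in MF buds. The sterile flower alone was high, with 96.6 CPM, against 47.3 CPM in MF flowers, 46.9 in MS buds and 52.4 in MF buds.

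Cla002224 is described as ATP-dependent DNA helicase Q1, a member of the RecQ helicases that unwind DNA during repair and recombination. On chromosome 7 from 884947 to 896461, it gave 301 counts in MS flowers, 155 in MF flowers, 305 in MS buds and 250 in MF buds. Here the fertile flower was the library that stood apart, with 24.5 CPM against 57.5 in MS flowers, 52.8 in MS buds and 44.4 in MF buds. Cla000629 is described as chromatin assembly factor-1, the complex that places histones on newly copied DNA. On chromosome 11 from 7942670 to 7950883, it gave 65 counts in MS flowers, 35 in MF flowers, 85 in MS buds and 79 in MF buds. Its fertile flower was again lowest, with 0.435 times the CPM + 1 of MF buds (interval of the CPM ratio 0.257 to 0.595), while MS flowers had 0.853 times that of MS buds (0.601 to 1.18).

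Cla001663, described only as a transcription factor, on chromosome 2 from 20256030 to 20258504, had 89 counts in MS flowers, 45 in MF flowers, 94 in MS buds and 67 in MF buds. MS flowers and MS buds were level (1.04, interval 0.773 to 1.41), and MF flowers had 0.630 times the CPM + 1 of MF buds (0.401 to 0.887). Cla002803, a C2H2-like zinc finger protein, a family with many DNA-binding regulators in plants, lies on chromosome 3 from 11290592 to 11291289. The 4 libraries held 78 counts in MS flowers, 32 in MF flowers, 47 in MS buds and 39 in MF buds, with a flower ratio of 2.62 (1.92 to 4.58). Cla002695, described as FIP1, on chromosome 7 from 157726 to 161282, had 84 counts in MS flowers, 35 in MF flowers, 23 in MS buds and 19 in MF buds, a flower ratio of 2.60 (1.93 to 4.42). MS flowers were 3.42 times MS buds (2.52 to 6.70), and MF flowers 1.496 times MF buds (0.914 to 3.04), within counting error.

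Cla000309, a peptidase of the M50 family, to which proteases that cut other proteins inside membranes belong, on chromosome 0 from 23371613 to 23380164, had 115 counts in MS flowers, 62 in MF flowers, 82 in MS buds and 55 in MF buds. Cla000843 is described as cystinosin, in animals the transporter that exports cystine from lysosomes. On chromosome 0 from 15503457 to 15505531, it gave 75 counts in MS flowers, 41 in MF flowers, 55 in MS buds and 38 in MF buds. In both genes the 2 fertile libraries were level and the bud ratio was high within the window, 1.41 and 1.36. Under TMM 4 of the 9 described genes met the rule, Cla002803, Cla002695, Cla002224 and Cla001663.

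Lists of genes were made by keywords in the descriptions, and their members were counted among the genes with at least 10 CPM in MS flowers. The list of transcription factors had 1 member among 43 such genes, Cla001663, and a median flower ratio of 1.30. None of the 103 genes came from the lists of kinases (77 genes, median flower ratio 1.14), transporters (29 genes, 1.09), ribosome and translation (25 genes, 1.02), lipids and cuticle (22 genes, 1.12), cell division and histones (19 genes, 1.40), heat shock and chaperones (18 genes, 1.002) or photosynthesis and chloroplast (13 genes, 1.246). The lists of defence and pathogenesis (11 genes, 1.32), peroxidases and oxidative stress (10 genes, 1.14), hormones (10 genes, 1.19), sugar metabolism (10 genes, 1.06), cell wall (7 genes, 1.05) and cytochrome P450 (5 genes, 1.15) also held none. The keywords matched wording only, so Cla002803 (zinc finger), Cla000629 (chromatin assembly) and Cla000843 (cystinosin) fell in none of the lists. Apart from Cla001663, the other described genes among the 103 were in none of them either. As the 103 genes are 0.952% of the 10814, nothing is read from these zeros in lists of this size.

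The 103 genes were spread over all 12 sequence groups of the table, the 11 chromosomes and chromosome 0. Chromosome 5 held 15 of them, or 1.07% of its 1408 genes with at least 10 CPM in MS flowers, and chromosome 4 held 4, or 0.733% of 546. Chromosome 0 held 3 of 121. No 2 of the genes were direct neighbours, either in order of position or among the genes with at least 10 CPM in MS flowers, and 3 pairs lay within 100000 bases. The closest was Cla006069 and Cla006073 on chromosome 7, 34109 bases apart with 3 genes between them. Cla018201 and Cla018205, on chromosome 4 from 19701345 to 19704755 and from 19743348 to 19744804, were both higher in flowers than in buds in both lines. Cla018201 had 315 counts in MS flowers, 179 in MF flowers, 58 in MS buds and 39 in MF buds, and Cla018205 had 282, 161, 76 and 63 in the same order. Of the 103 genes 55 lie on the plus strand, or 53.4%, against 50.0% of the 10814. One gene, Cla007290, overlaps another gene of the table, Cla007291, and its reads may belong in part to that gene.

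The genes spanned between 249 and 16315 bases from the first to the last annotated position, introns included, with a median of 2637 against 3149 over the 10814 genes. When the 10814 genes were divided by span into 10 classes of about equal size, the 2 classes of the shortest genes held 28 of the 103 genes and the 2 classes of the longest held 21. Single classes held between 5 and 16 genes, and the class of the longest genes, with spans of 8119 bases or more, held 16. Over all 10814 genes the line ratio moved with the span. From the shortest to the longest span class the median flower ratio over all genes went up from 1.03 to 1.31, and the median bud ratio from 1.08 to 1.17. In the longest span class the median ratio of MS flowers to MS buds was 1.16 and that of MF flowers to MF buds 1.02. When each ratio was divided by the median of its span class, an alternative chosen after seeing the data, 47 genes met the rule, 40 of them among the 103. Of the 16 genes in the longest span class 2 stayed, Cla017484 and Cla006944, while TMM kept 7 of them. Of the 13 genes in the shortest span class 12 stayed. Of the 9 described genes 5 lie in the longest span class (Cla002140, Cla000903, Cla002224, Cla000629 and Cla000309) and none of these 5 stayed, while Cla002803 and Cla002695 did. Whether RNA integrity or library preparation had a part in this trend was not tested.

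**Figure D4:**
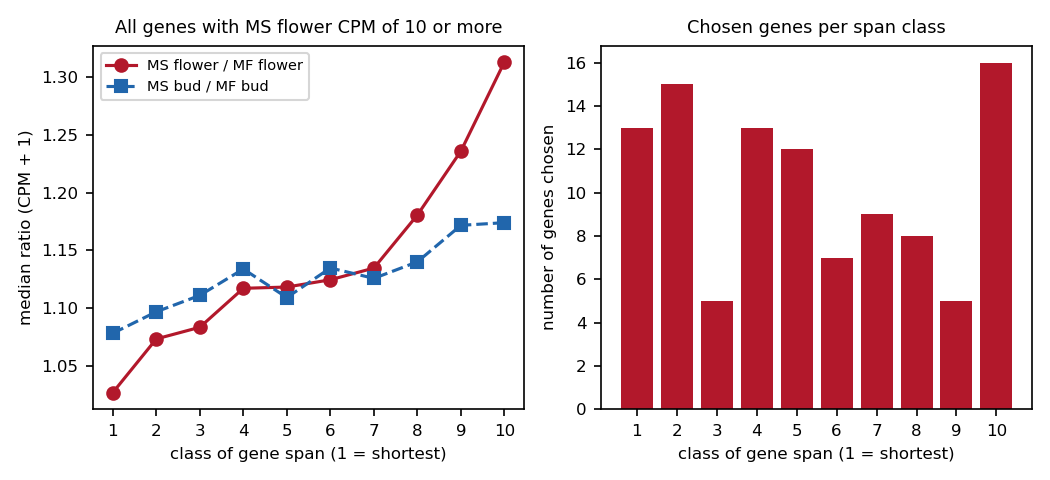
Left, median ratio of MS to MF libraries (CPM + 1) in flowers (red circles) and in buds (blue squares) over all genes with at least 10 CPM in MS flowers, by class of gene span (1, shortest, to 10, longest); the vertical axis does not start at 0. Right, number of the 103 genes in each class. The flower line climbs from 1.03 to 1.31 and the tallest bar is that of the longest class, with 16 genes.

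Under TMM, median-of-ratios size factors and the division by span medians alike, 35 of the 103 genes met the rule. Among them were 9 of the 10 genes with the highest flower ratio by column sums (Cla017484, Cla011528, Cla016022, Cla014233, Cla017000, Cla004709, Cla006944, Cla005103 and Cla002803) and the described gene Cla002695. The exception was Cla018086. These 35 genes had been chosen on the same libraries, and the count says only how far the choice depends on the scaling.

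The limits of the rule passed through a dense part of the data. Cla020770, with 60 counts in MS flowers and 33 in MF flowers, and Cla020328, with 223 and 131, lay just inside the flower limit with ratios of 2.0004 and 2.0038, and Cla009512 and Cla006207 lay just outside with 1.999 and 1.992. At the lower limit of the bud ratio Cla018086 and Cla019485 were inside, with 0.675 and 0.691, and Cla017042 and Cla017626 outside, with 0.668 and 0.645. At the upper limit Cla003858 and Cla017858 were inside, with 1.48 and 1.46, and Cla009592 and Cla012272 outside, with 1.51 and 1.51. At the limit of 10 CPM in MS flowers Cla003437 and Cla005087 were inside, with 53 counts each, and Cla015851 and Cla018268 outside, with 51 each. A step of 2 counts therefore separated genes on both sides of that limit.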

How the data were processed

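RNA-seq of 4 libraries (1 per condition) was analysed. The authors trimmed paired-end reads with Trimmomatic, mapped them with Bowtie2 in TopHat2 to version 1 of the watermelon genome and counted reads per gene with HTSeq; versions and the strand setting are not given in the sources used here. The deposited values are raw counts per gene, and coordinates are those of the count table. The members and the keyword lists were chosen with earlier results of these data known. CPM is the count divided by the column sum, times 1000000, and ratios used CPM + 1, except intervals (95%, exact conditional binomial). TMM factors came from edgeR 4.0.16 and size factors from DESeq2 1.42.0 under R 4.3.3, and are alternatives only. No test was run, because the rule uses all 4 libraries. Intervals were computed with scipy 1.17.1, tables with pandas 2.3.3 and figures with matplotlib 3.10.9 in Python 3.11.15, and the scripts were tested on simulated data. Descriptions came from the first 1999 gene rows of the study's supplementary annotation. No genome sequence was used, so sequences are not shown and how reads of gene copies were split was not examined.

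Named genes were all described members, the 10 with the highest flower ratio, the 10 with most CPM in MS flowers, the 5 with the highest MS and the 5 with the lowest MF ratio of flowers to buds, runs of neighbours (none were found) and the 2 genes on each side of each limit. Cla005087, Cla005819, Cla018201, Cla018205, Cla006069, Cla006073 and the genes listed for opposite organ differences were also singled out after their values were seen. The same holds for the markers Cla002347, Cla002155, Cla003156, Cla001608, Cla000553, Cla002397 and Cla002114. Alternatives were other scalings, pseudocounts, minimum levels, folds and bud windows.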

Additional observations from a re-analysis of the deposited data

Results flagged for a closer look

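In 5 of the 103 genes the organs differed in opposite directions in the 2 lines, with MS flowers above MS buds and MF flowers below MF buds and both counting intervals clear of 1, which is 4.85% of the 103 genes against 1.32% of the 10814 genes with at least 10 CPM in MS flowers. The difference between the lines was not tested, since each line has 1 library per organ, and the rule itself favours such genes. The ratio of flowers to buds was 1.43 in DAH3615-MS and 0.534 in DAH3615 for Cla007290, 1.84 and 0.657 for Cla013803, 1.53 and 0.649 for Cla013821, 1.71 and 0.704 for Cla017215 and 1.252 and 0.855 for Cla022130, with the sterile line first. Cla013803 and Cla013821 lie on chromosome 8 with a gap of 211792 bases and 17 genes between them. Cla013803 had 287 counts in MS flowers, 160 in MF flowers, 169 in MS buds and 220 in MF buds. Of the 5 genes only Cla007290 met the rule under TMM and under size factors, and it did not with division by span medians. Cla007290 overlaps the gene Cla007291, so its counts are uncertain. Without regard to the intervals, 35 of the 103 genes had a ratio above 1 in DAH3615-MS and below 1 in DAH3615, or 34.0% against 9.53% of the 10814 genes.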

How the results depend on the processing

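The number of genes depended strongly on the limits. In place of 103 genes, TMM gave 45, median-of-ratios size factors 47, a pseudocount of 5 gave 39, a minimum of 5 CPM gave 159 and of 20 CPM 59, a fold of 3 gave 7 and of 1.5 gave 1123, and a narrower and a wider bud window (0.5 to 2) gave 50 and 163. Division by span medians gave 47 and a further 2-fold step over both buds gave 50, both chosen after seeing the data. A pseudocount of 0.5 and a minimum of 10 counts in every library stayed within 1.5 times the main count. The genes at least 2-fold higher in MS flowers than in MS buds (52) numbered 26 under TMM and 26 under size factors, 27 with a pseudocount of 5, 79 and 32 at 5 and 20 CPM, 5 and 292 at folds of 3 and 1.5, and 28 in the narrow window. The genes at most 0.5 times as high in MF flowers as in MF buds (8) numbered 1 under both scalings and 1 with a pseudocount of 5, 18 and 4 at 5 and 20 CPM, 1 and 68 at folds of 3 and 1.5, and 3 and 13 in the 2 windows. The genes level in both lines (43) numbered 17 and 71 with class folds of 1.5 and 3, and 18 under TMM, added after seeing the data. Of the 33 named genes all kept a flower ratio above 1 under both scalings and both pseudocounts (1.65 to 4.82), and 16 kept a ratio of at least 2 under TMM. Fewer or more genes follow from the construction of the limits. No replicate could be left out, and no paired analysis was possible because each condition has 1 library. Depth limits both ratios at the limits of the rule: 91 flower intervals reach 2 or less and 90 bud intervals cross an edge of the window.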
